A study of Mus musculus with 12 samples.

Results

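The genes of oxidative phosphorylation were followed in RNA-seq libraries of cells sorted as microglia, the resident macrophages of the brain. Members were the protein-coding genes whose mouse symbol starts with Nduf, Uqcr, Atp5, Cox4 to Cox8, mt-Nd, mt-Co, mt-Atp or mt-Cytb, together with Sdha, Sdhb, Sdhc, Sdhd, Cyc1 and Cycs. This rule, which uses names and no measured value, took 107 of the 36491 genes in the table. Of these, 95 are encoded in the nucleus and 12 in the mitochondrial genome, and mt-Nd4l was not analysed here. A further 11 symbols that match the rule belong to pseudogenes and were left out. The nuclear members comprise 7 core subunits, 29 accessory subunits and 8 assembly factors of complex I, 4 subunits of complex II, 9 of complex III, 20 of complex IV, 16 of the ATP synthase, Cycs and Atp5s, a factor B-like gene of the ATP synthase.

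All mice were wild-type C57BL/6J animals aged 6 months that had received a bone marrow transplant (BMT). In one arm a shield covered the head during the procedure, and in the other there was none. Every group then received PLX5622, a blocker of CSF1R signalling on which microglia depend, in the diet for 2 weeks and standard chow for 6 weeks. A single intraperitoneal injection of 50 µg lipopolysaccharide (LPS, the bacterial ligand of Toll-like receptor 4) or of saline followed, and microglia were isolated by magnetic sorting 6 h later. The 4 groups, shielded saline, shielded LPS, unshielded saline and unshielded LPS, had 3 libraries each. The labels do not say whether the 3 samples of a group are 3 animals. The p-values therefore rest on the spread among these samples, part of which may be technical.

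Oxidative phosphorylation couples electron transfer along the inner mitochondrial membrane to the making of ATP. Complex I takes electrons from NADH and complex II from succinate, complex III passes them to cytochrome c, complex IV hands them to oxygen, and the ATP synthase uses the proton gradient that results. Most subunits come from nuclear genes and are imported, whereas a small core of complexes I, III and IV and of the ATP synthase is transcribed inside the mitochondrion from mitochondrial DNA, so the complexes draw on a pair of genomes. In macrophages, LPS is known for a shift towards glycolysis, and respiratory chain function is a studied part of that response.

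Between 18090977 and 60495968 counts were assigned to genes per library, and depth was greatest in the 3 unshielded LPS libraries. The treatment field of shielded saline libraries 2 and 3 says LPS, against their titles, and the groups follow the titles. Acod1, the LPS-inducible enzyme that makes itaconate, stood at 2.63, 1.94 and 1.39 CPM (counts scaled to a common library size with TMM) in the shielded saline libraries 1, 2 and 3. It was at 248, 123 and 180 CPM in the shielded LPS libraries, so the levels of libraries 2 and 3 lay with the other saline library. Microglial markers were the most abundant marker list, with mean log2 CPM of 9.12 to 10.9 across libraries, and none of the 9 neuronal or 8 oligodendrocyte markers was at 0 in any library. Neuronal markers had mean log2 CPM of 2.36, 3.31 and 4.65 in the shielded LPS libraries and of 4.22 to 5.71 in all other libraries. In these bulk samples, fewer cells of a type and less RNA per cell cannot be told apart.

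After LPS the balance between the nuclear and the mitochondrial transcripts differed from that after saline, in both arms. Summed counts of the 12 mitochondrial members were 3.87, 4.18 and 3.93 times those of the 95 nuclear members in the shielded saline libraries. In the shielded LPS libraries this ratio was 2.47, 2.89 and 2.93. The ratio needs no scaling between libraries, and the ranges of these groups did not overlap. In unshielded mice it was 4.35, 4.58 and 4.32 after saline and 3.52, 3.55 and 3.47 after LPS, again without overlap. The LPS ratios of unshielded mice lay above all 3 LPS ratios of shielded mice. As shares of all counts, the nuclear members took 0.474 to 0.512% in shielded saline, 0.559 to 0.594% in shielded LPS, 0.447 to 0.476% in unshielded saline and 0.484 to 0.522% in unshielded LPS libraries. The mitochondrial mRNAs took 1.94 to 1.98%, 1.39 to 1.74%, 1.93 to 2.07% and 1.72 to 1.82% in the same order.

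**Figure D1:**
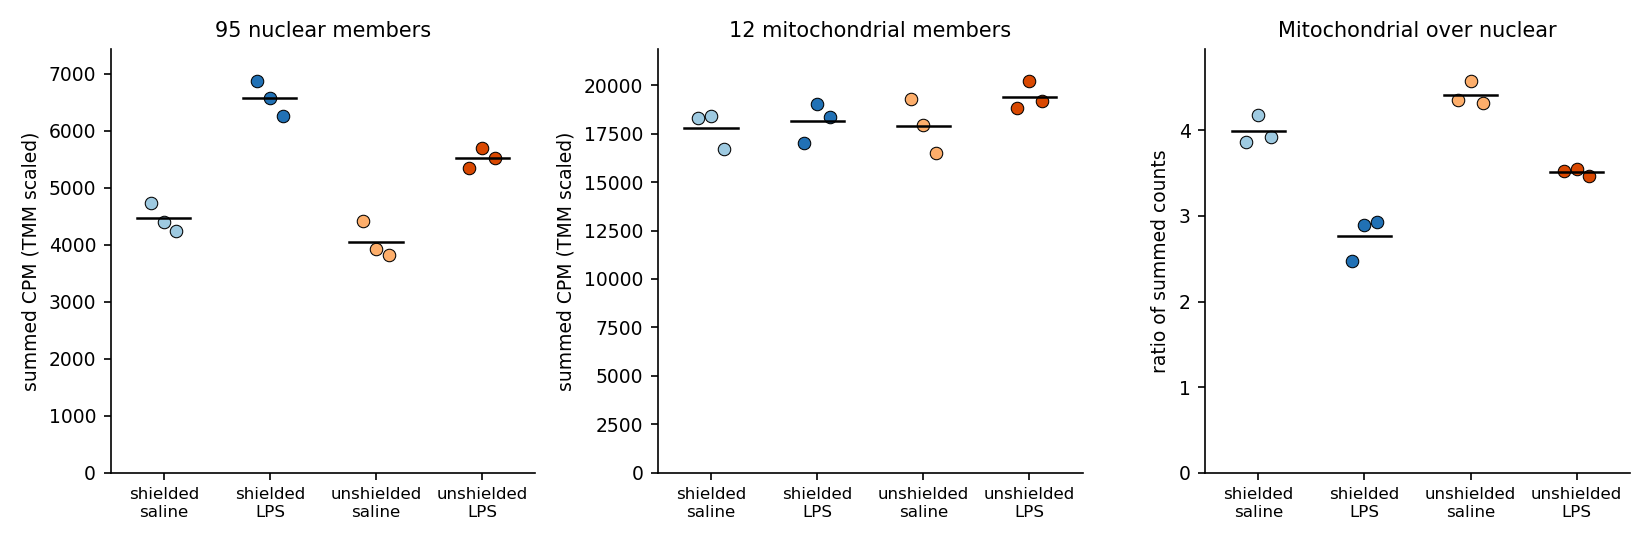
Summed CPM (TMM scaled) of the 95 nuclear members (left) and of the 12 mitochondrial members (middle), and the ratio of their summed counts (right), with 1 point per library and a bar at the mean of 3 libraries. The nuclear sum was higher after LPS in both arms, the mitochondrial sum overlapped between saline and LPS, and the ratio was lowest in the shielded LPS libraries (2.47 to 2.93).

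In shielded mice, LPS was followed by higher levels of most nuclear members. Of the 92 that passed the filter on low counts, 72 rose, 6 fell and 14 did not pass the test (edgeR quasi-likelihood test, Benjamini-Hochberg adjusted p under 0.05 over all 18875 tested genes). Over all tested genes, 67.5% were called, 32.4% higher and 35.1% lower. The saline and LPS libraries did not overlap for 78 members that were higher and 7 that were lower, against 34.1% and 35.7% of all tested genes. The median log2 fold change of the nuclear members was 0.47, and that of all tested genes was -0.14. When CPM was instead scaled to library totals, 36 nuclear members were called higher and 14 lower, with a median of 0.12 against -0.49 over all genes. Of all called genes, 48.0% were higher with TMM and 30.7% with library totals. The nuclear median thus lay 0.60 above the median of all genes under both scalings. A change of scaling shifts all genes of a comparison nearly alike, so it could hardly alter this gap. Marker lists moved with this comparison, and 8 of 8 oligodendrocyte markers were lower. Of 10 microglial markers 7 were lower and 2 higher, and of 6 monocyte markers 4 were higher and 1 lower. Of the neuronal markers, 8 of 9 were lower, with a summed level of 277 to 1239 CPM after LPS against 1405 to 2234 CPM after saline. In a fit that took the level of neuronal and oligodendrocyte markers as a covariate, 47 nuclear members were called higher and 3 lower. Of all 18875 tested genes, 3821 were then called higher and 2722 lower. Without shielded saline libraries 2 and 3, library 1 stands alone in its group and fewer members were called. The median log2 fold change was then 0.37 for nuclear members and -0.08 for all tested genes. With libraries 2 and 3 grouped by their treatment field, there was no call in either direction among the members or among all 18875 genes. Mean log2 CPM of neuronal markers was 2.36 to 4.65 after LPS and 4.76 to 5.71 after saline in shielded mice. For oligodendrocyte markers it was 4.01 to 5.92 and 6.61 to 7.39, also without overlap. The covariate fit thus cannot separate these levels from LPS, and the part of the marker lists was not tested.

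**Figure D2:**
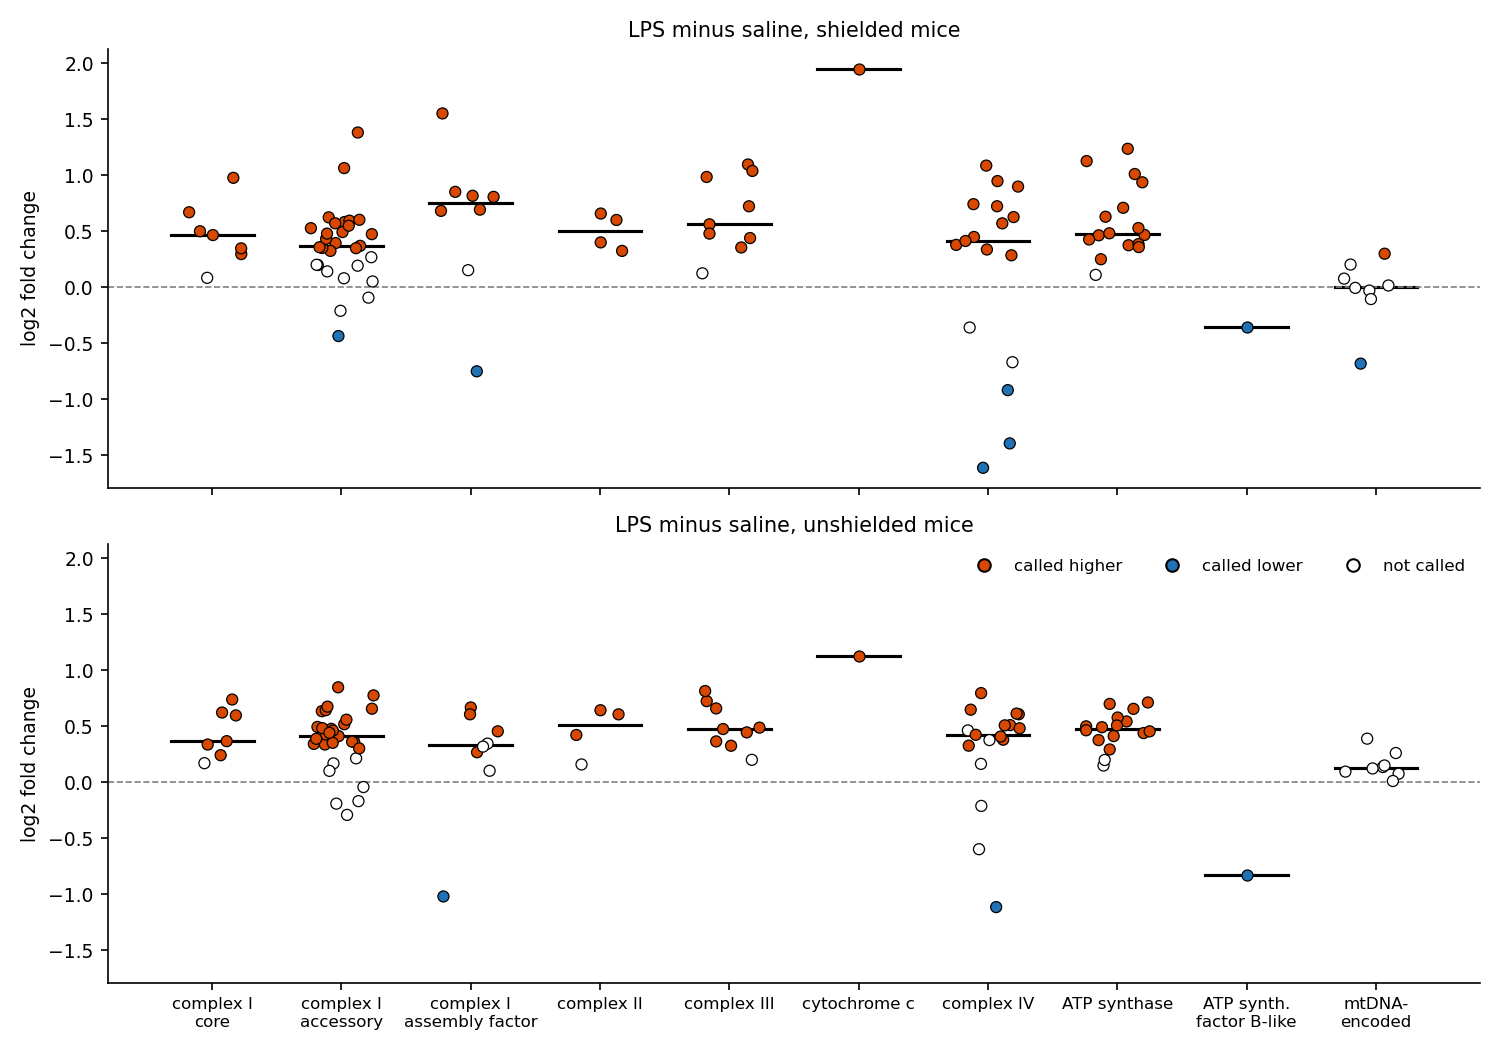
Log2 fold change of each tested member after LPS in shielded mice (top) and unshielded mice (bottom), grouped by complex. Each point is 1 gene, red where called higher, blue where called lower and open where not called (adjusted p threshold 0.05), and horizontal bars mark the median of the group; most nuclear members lie above 0 in both panels and the 8 mitochondrially encoded members lie around it.

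Cycs, which encodes the cytochrome c that carries electrons from complex III to complex IV, had the largest fold change of all members. It stood at 20.3, 19.5 and 17.7 CPM in the shielded saline libraries and at 81.9, 67.3 and 72.2 CPM in the shielded LPS libraries. Every LPS library was far above every saline library, and Cycs rose by 1.95 on the log2 scale (SE 0.09, adjusted p = 1.8e-08). In unshielded mice it stood at 16.4, 16.8 and 15.8 CPM after saline and at 36.4, 37.3 and 33.4 CPM after LPS, a log2 fold change of 1.13 (SE 0.09, adjusted p = 1.4e-06). Of the 50-base words of its transcripts, 26.2% also occur in transcripts of other genes, so its reads may have been lost or shared there.

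The promoters of Cycs and of Ndufaf4, the member with the second largest rise, are shown with those of Ndufa12, which also rose, and of Cox7a2l, which fell, as examples of members that rose and of one that fell. Each run is the 150 bases before the RefSeq start (GRCm38.p6), read 5′ to 3′ on the strand of the gene. Capitals mark the palindromic core CGCATGCG of the motif of NRF1, a factor known for binding promoters of respiratory genes.
Cycs (chr6:50566570-50566719, minus strand): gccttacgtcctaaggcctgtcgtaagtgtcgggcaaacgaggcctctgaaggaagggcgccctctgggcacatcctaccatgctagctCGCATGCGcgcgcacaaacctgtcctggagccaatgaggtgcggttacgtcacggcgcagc
Ndufaf4 (chr4:24897933-24898082, plus strand): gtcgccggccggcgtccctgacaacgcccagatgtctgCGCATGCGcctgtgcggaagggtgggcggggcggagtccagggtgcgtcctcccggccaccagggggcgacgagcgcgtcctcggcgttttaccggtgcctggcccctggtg
Ndufa12 (chr10:94198885-94199034, plus strand): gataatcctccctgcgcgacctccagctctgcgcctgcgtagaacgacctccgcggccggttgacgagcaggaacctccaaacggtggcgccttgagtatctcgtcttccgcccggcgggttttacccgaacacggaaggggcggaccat
Cox7a2l (chr17:83514334-83514483, minus strand): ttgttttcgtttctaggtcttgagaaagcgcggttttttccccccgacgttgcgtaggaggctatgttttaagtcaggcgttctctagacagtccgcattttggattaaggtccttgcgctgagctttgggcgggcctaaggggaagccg
The match starts 61 bases before the start in Cycs and 112 bases before it in Ndufaf4, and the runs of Ndufa12 and Cox7a2l hold none of the 4 motifs searched. The same runs of Atp5g1 and Ndufb6, which rose, and of Ndufaf7 and Ndufa6, which fell, are not shown and held none either.

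RefSeq promoters were found for 75 of the 95 nuclear members. The NRF1 core CGCATGCG was searched on both strands from 250 bases before to 50 bases after the start. It occurred in 12 of the 75 (16.0%, exact 95% interval 8.55 to 26.3%) and in 2.07% of all 27025 genes with a promoter. A gene counted once if any of its promoters held a match. The ETS core CCGGAAG, bound by factors such as GABP, occurred in 18 (24.0%), against 9.93% of all these genes. The YY1 motif AAGATGGCG occurred in 8 (10.7%), against 1.64%, and the motif TCAAGGTCA of the estrogen-related receptors in 2 (2.67%), against 0.466%. In the 150 bases before the start alone, the shares were 9.33% for NRF1, 16.0% for ETS, 1.33% for YY1 and 1.33% for the receptor motif. Of all genes with a promoter, the shares were 1.47, 6.33, 0.44 and 0.211%. None of these motifs contains another. All 12 members with the NRF1 core were tested, and their median log2 fold change after LPS in shielded mice was 0.53, against 0.43 for the 61 tested members whose promoter lacked it. In unshielded mice these medians were 0.46 and 0.42. A match is a description of letters, and binding was not measured.

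Complex I takes electrons from NADH through a peripheral arm built on 7 nuclear core subunits. After LPS in shielded mice 6 of these rose, as did 20 of the 29 accessory subunits, while 1 accessory subunit fell. With library totals the core split was 3 higher and 1 lower and the accessory split 6 and 6. Ndufv2, a core subunit of the NADH-oxidising module, was at 41.3, 36.6 and 34.8 CPM in shielded saline and at 73.2, 70.6 and 77.9 CPM in shielded LPS libraries. It rose by 0.98 (log2, SE 0.10, adjusted p = 2.4e-06) and was chosen here after its values were seen, as the core subunit with the largest change. Ndufs1, the largest core subunit, rose from 50.5 to 53.1 CPM after saline to 68.9 to 74.1 CPM after LPS, with a log2 fold change of 0.47 (SE 0.06, adjusted p = 4.9e-05). Ndufv1, the subunit that binds NADH, was the core member that was not called, with a log2 fold change of 0.08 (adjusted p = 0.28), and its value was -0.27 with library totals.

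Among the accessory subunits, Ndufa12 had the largest change. Its CPM values were 22.6, 20.3 and 21.9 in shielded saline and 58.0, 54.7 and 56.0 in shielded LPS libraries, and 21.8, 20.5 and 19.9 against 36.8, 36.1 and 33.8 in unshielded mice. The saline values of both arms overlapped, and the LPS values of shielded mice lay above all others. The log2 fold change after LPS was 1.38 in shielded mice (SE 0.08, adjusted p = 3.3e-08) and 0.78 in unshielded mice (SE 0.07, adjusted p = 5.8e-06). Ndufb6, a subunit of the membrane arm, rose by 1.06 and 0.85, and Ndufs4, a subunit needed late in assembly, rose by 0.59 and 0.44 in the same order. Ndufa6 was the accessory subunit that fell. It was at 45.1, 37.9 and 38.2 CPM in shielded saline and at 31.8, 28.6 and 29.2 CPM in shielded LPS libraries, which do not overlap, with a log2 fold change of -0.44 (SE 0.11, adjusted p = 0.0038).

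In shielded mice the assembly factors held the largest rise and the largest fall among complex I genes. Of 8, 6 rose and 1 fell after LPS in shielded mice, under TMM and under library totals alike. Ndufaf4 was at 12.9, 13.4 and 13.3 CPM in shielded saline and at 44.5, 37.6 and 33.8 CPM in shielded LPS libraries. In unshielded mice it was at 12.4, 12.3 and 11.5 CPM after saline and at 16.6, 17.6 and 15.3 CPM after LPS. The level after LPS was thus higher in both arms, by 1.55 in shielded mice (log2, SE 0.10, adjusted p = 1.2e-07) and by 0.45 in unshielded mice (SE 0.10, adjusted p = 0.0035). With library totals the latter was 0.16 (adjusted p = 0.123). Ndufaf7, a methyltransferase that acts on a core subunit during assembly, went the other way. It was at 31.8, 32.4 and 29.5 CPM in shielded saline, 17.4, 17.3 and 20.9 in shielded LPS, 26.8, 25.5 and 26.1 in unshielded saline and 15.3, 11.7 and 11.6 in unshielded LPS libraries. Ndufaf7 fell by 0.75 in shielded mice (log2, SE 0.11, adjusted p = 0.0001) and by 1.02 in unshielded mice (SE 0.11, adjusted p = 1.9e-05), and no saline library overlapped an LPS library of its arm.

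**Figure D3:**
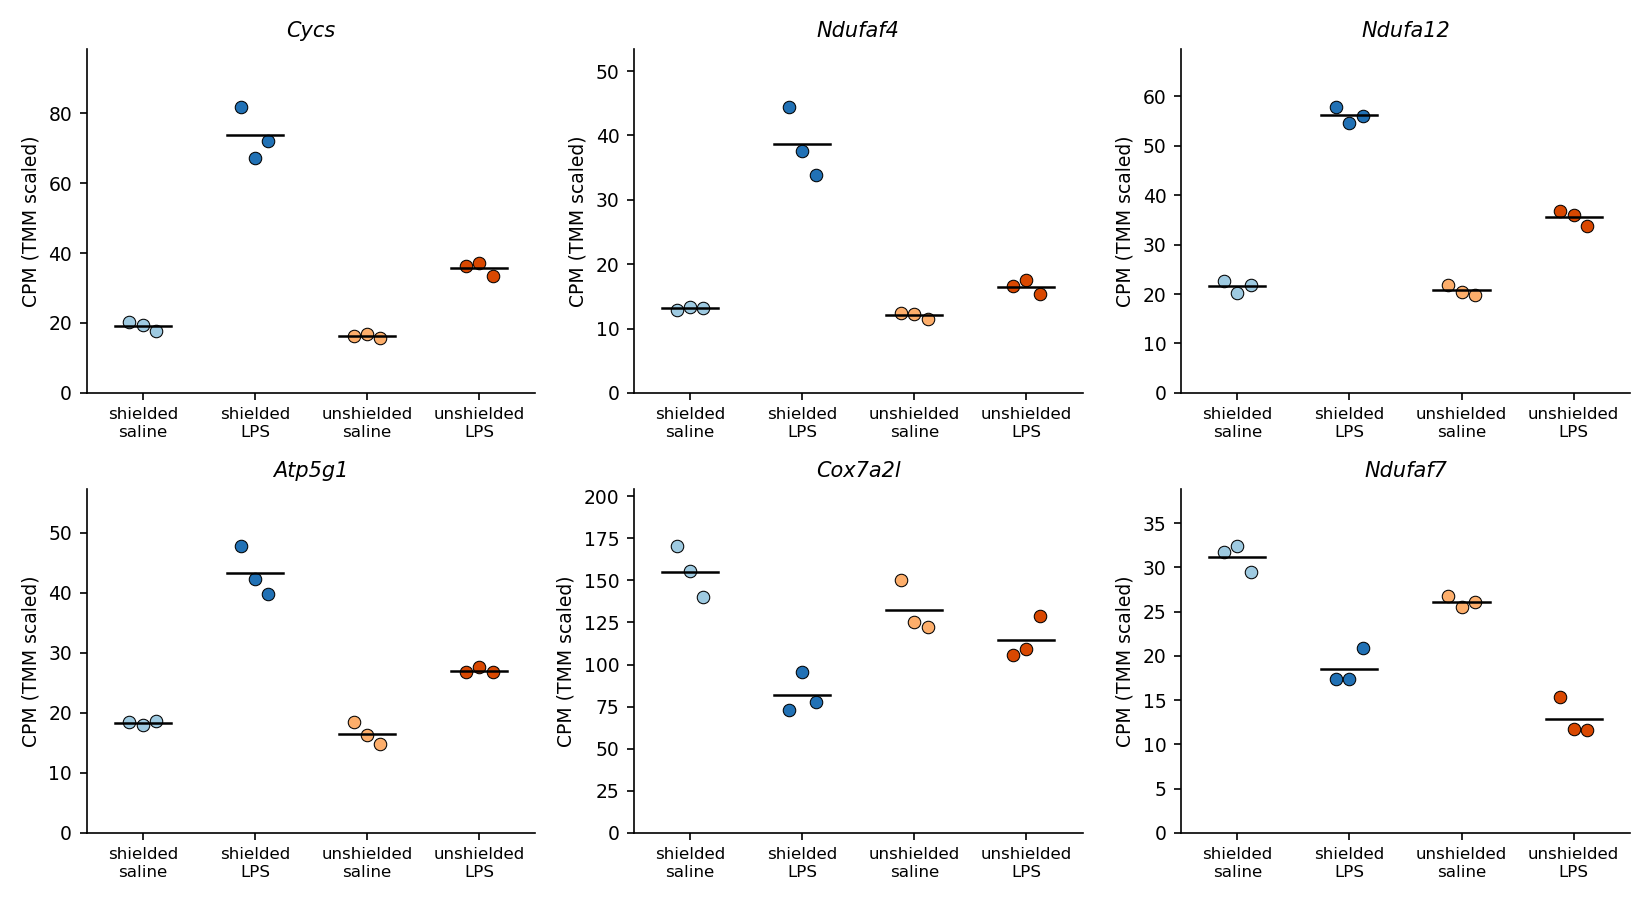
CPM (TMM scaled, linear axes from 0) of 6 nuclear members in each of the 12 libraries, with a bar at the mean of 3. Cycs, Ndufaf4, Ndufa12 and Atp5g1 are highest in the shielded LPS libraries, Cox7a2l is lowest there, and Ndufaf7 is lower after LPS in both arms.

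Complex II, the succinate dehydrogenase shared with the tricarboxylic acid (TCA) cycle, has no mitochondrially encoded subunit. All 4 of its genes rose after LPS in shielded mice and 3 of 4 in unshielded mice, against 2 and 2 with library totals, where Sdha had changes of -0.03 and -0.14 and 1 gene fell in unshielded mice. Sdhc, a membrane anchor, was at 51.1, 56.7 and 47.0 CPM in shielded saline and at 84.4, 81.8 and 77.9 CPM in shielded LPS libraries. Its log2 fold changes were 0.66 (SE 0.09, adjusted p = 3.5e-05) in shielded and 0.64 (SE 0.09, adjusted p = 9e-05) in unshielded mice. Sdhd, the other anchor, had 0.60 and 0.61, and Sdhb, the iron-sulfur subunit, had 0.40 and 0.42. Sdha, the flavoprotein, was the gene not called in unshielded mice, with 0.32 in shielded (adjusted p = 0.0047) and 0.16 in unshielded mice (adjusted p = 0.14).

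Of the 9 nuclear genes of complex III, 8 rose in each arm, against 5 in each arm with library totals, where 1 fell in shielded mice. Cyc1, the cytochrome c1 that passes electrons to cytochrome c, was at 56.8, 54.2 and 58.5 CPM in shielded saline and at 122, 112 and 100.5 CPM in shielded LPS libraries. It rose by 0.98 (log2, SE 0.09, adjusted p = 1.3e-06), and by 0.66 in unshielded mice (SE 0.09, adjusted p = 8.2e-05). Uqcrb and Uqcrq, small subunits near the ubiquinone-binding site, rose by 1.10 and 1.04 in shielded and by 0.72 and 0.81 in unshielded mice. Uqcrc1, a core protein, rose by 0.56 and 0.49, and Uqcrfs1, the Rieske iron-sulfur protein, by 0.48 and 0.36. Uqcrh was the gene not called in either arm.

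Complex IV held 3 of the 6 nuclear members that fell after LPS in shielded mice. After LPS in shielded mice 12 of 17 tested genes rose and 3 fell, and in unshielded mice 11 rose and 1 fell, against 7 and 4 and against 6 and 2 with library totals. Cox5a, a ubiquitous subunit, was at 13, 11.9 and 11.8 CPM in shielded saline and at 27.6, 24.8 and 25.6 CPM in shielded LPS libraries, with a log2 fold change of 1.09 (SE 0.09, adjusted p = 8.4e-07). In unshielded mice its change was 0.80 (SE 0.09, adjusted p = 2.6e-05). Cox4i1 and Cox8a, among the most abundant nuclear members, had smaller changes of 0.29 and 0.34 in shielded mice, and both values were negative with library totals, at -0.06 and -0.01. Cox6a1, the non-muscle form of its subunit, rose by 0.38 in shielded and 0.51 in unshielded mice.

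Cox7a2l, counted here with complex IV, fell in shielded mice. It was at 170.2, 156 and 140.0 CPM in shielded saline and at 72.8, 95.7 and 78.0 CPM in shielded LPS libraries, which do not overlap, and its log2 fold change was -0.92 (SE 0.13, adjusted p = 4.9e-05). Its close paralog Cox7a2, a structural subunit, was at 29.8, 28.6 and 25 CPM against 50.2, 42.3 and 45.1 CPM in the same libraries and rose by 0.72 (SE 0.09, adjusted p = 2.9e-05). In unshielded mice Cox7a2l was at 150.5, 125 and 122 CPM after saline and at 106, 109 and 129 CPM after LPS. These values overlapped, and the change of -0.21 (SE 0.13) was not called (adjusted p = 0.19), although with library totals it was -0.50 (adjusted p = 0.0058).

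Ndufa4, once assigned to complex I and now to complex IV, has an inducible paralog, listed as AA467197, and a paralog known from hypoxia, Ndufa4l2. AA467197 was at 0.539, 0.291 and 0.368 CPM in shielded saline and at 7.20, 7.08 and 7.59 CPM in shielded LPS libraries, and at 0.547, 0.241 and 1.01 CPM against 17.9, 26.1 and 24.8 CPM in unshielded mice. Its log2 fold changes were 4.15 (SE 0.34, adjusted p = 6e-07) and 5.18 (SE 0.34, adjusted p = 4.1e-07). Ndufa4 itself rose by 0.63 and 0.51 and stood at 65.8 to 68.9 CPM in the shielded LPS libraries. Ndufa4l2 fell by 1.61 in shielded mice (log2, SE 0.34, adjusted p = 0.0014) from 0.905 to 1.56 CPM to 0.332 to 0.514 CPM, and its change of -0.60 in unshielded mice was not called. The testis-associated isoform Cox6b2 fell from 1.84 to 3.06 CPM to 0.904 to 1.12 CPM in shielded mice, by 1.39 on the log2 scale, and it was named after its values were seen.

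All 16 genes of the ATP synthase had higher fitted levels after LPS in both arms, 15 passing the test in shielded and 14 in unshielded mice. With library totals 6 and 7 passed and none fell. Atp5g1, one of 3 genes for the membrane ring subunit c, was at 18.4, 18 and 18.6 CPM in shielded saline and at 47.7, 42.2 and 39.8 CPM in shielded LPS libraries. It was at 18.4, 16.3 and 14.7 CPM and at 26.8, 27.6 and 26.7 CPM in unshielded mice. The groups of each arm did not overlap, and the log2 fold changes were 1.24 (SE 0.09, adjusted p = 3.3e-07) and 0.71 (SE 0.09, adjusted p = 7e-05). The other subunit c genes encode the same mature protein: Atp5g3 rose by 1.01 and 0.66, whereas Atp5g2 rose by 0.25 in shielded mice and was not called in unshielded mice (0.15, adjusted p = 0.17). Atp5b, the catalytic beta subunit, was at 454, 419 and 413 CPM in shielded saline and at 1030, 925 and 850.3 CPM in shielded LPS libraries. It rose by 1.13 (SE 0.10, adjusted p = 9.5e-07), and Atp5a1, its alpha partner, rose by 0.71 (SE 0.10, adjusted p = 4.3e-05). Atpif1, the inhibitor of ATP hydrolysis by this enzyme, is no member by the rule and was not called, with changes of 0.03 (SE 0.12, adjusted p = 0.83) and 0.14 (SE 0.12, adjusted p = 0.35).

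Few mitochondrially encoded members were called between LPS and saline on the TMM scale. In shielded mice 1 of 8 tested genes was called higher and 1 lower, with a median log2 fold change of 0.00, and in unshielded mice none was called, with a median of 0.13. With library totals the result differed: 6 of 8 were called lower in shielded mice, with a median of -0.34, and 3 of 8 in unshielded mice, with a median of -0.17. Under that scaling 9127 of all 18875 tested genes were called lower in shielded and 6519 in unshielded mice. Relative to the median of all genes the mitochondrial median was higher by 0.14 in shielded and 0.19 in unshielded mice under TMM, and by 0.15 and 0.19 under library totals. Such gaps can hardly move with the scaling, which shifts all genes nearly alike. In each case the mitochondrial median lay below the nuclear median, by 0.46 in shielded and by 0.31 in unshielded mice.

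Among single mitochondrial genes, mt-Co1, the catalytic subunit of complex IV, was the most abundant member. It was at 7937, 8136 and 7325 CPM in shielded saline and at 7472, 8252 and 7925 CPM in shielded LPS libraries, which overlap, and its log2 fold change was 0.02 (SE 0.10, adjusted p = 0.89). With library totals it was -0.33 (adjusted p = 0.0034). The nuclear complex IV gene Cox5a thus rose by 1.09 in libraries in which mt-Co1 had a change near 0 on the same scale. The cytochrome b gene mt-Cytb of complex III, whose transcript shares no 50-base word with another gene, was at 3579, 3608 and 3284 CPM and at 3321, 3664 and 3442 CPM, with a change of -0.01 (SE 0.10, adjusted p = 0.96). In unshielded mice it was at 3832, 3506 and 3281 CPM after saline and at 3773, 4099 and 3796 CPM after LPS, with a change of 0.14 (SE 0.10, adjusted p = 0.27). The complex I genes mt-Nd1, mt-Nd2, mt-Nd4 and mt-Nd5 had changes of -0.03, 0.08, -0.11 and 0.20 in shielded and of 0.26, 0.15, 0.01 and 0.09 in unshielded mice, none called on the TMM scale.

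The called mitochondrial genes were mt-Nd6 and mt-Nd3. The gene mt-Nd6 is the single protein gene of the light strand and overlaps mt-Nd5 on the opposite strand, and without a stated strand setting their reads cannot be told apart where they meet. It was at 235, 261 and 206 CPM in shielded saline and at 266, 318 and 279 CPM in shielded LPS libraries, just without overlap, and its log2 fold change of 0.30 (SE 0.11, adjusted p = 0.025) became -0.04 (adjusted p = 0.682) with library totals. With the replicate number as a block, 2 mitochondrial genes in place of 1 were called higher in this comparison. The gene mt-Nd3 was at 1.31, 1.23 and 2.17 CPM and at 0.995, 1.03 and 0.929 CPM, with a change of -0.68 (SE 0.26, adjusted p = 0.033). Of its 50-base words, 98.0% also occur in 1 other gene, Gm28438. Its call was lost when any of the 3 shielded LPS libraries was left out, and without shielded saline library 3 its value was -0.37.

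Of the mitochondrial members, 4 could not be tested. Over all 12 libraries together, mt-Co2, mt-Co3, mt-Atp6 and mt-Atp8 had 10, 16, 6 and 14 counts. Of their 50-base words, 100, 99.9, 99.5 and 0% occur in another gene's transcripts, while mt-Co1 and mt-Nd4, at 51.1 and 62.2%, were still counted in large numbers. The levels of mt-Co2, mt-Co3, mt-Atp6 and mt-Atp8 are not reported here. The nuclear members that were not tested were Cox7b2, Cox8b and Cox8c, tissue-restricted isoforms of complex IV, with 15, 47 and 5 counts in all. Among nuclear members, 21 of the 92 tested shared over 10% of their words with another gene. Of the other 71, 55 were called higher and 5 lower after LPS in shielded mice and 52 and 3 in unshielded mice.

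**Figure D4:**
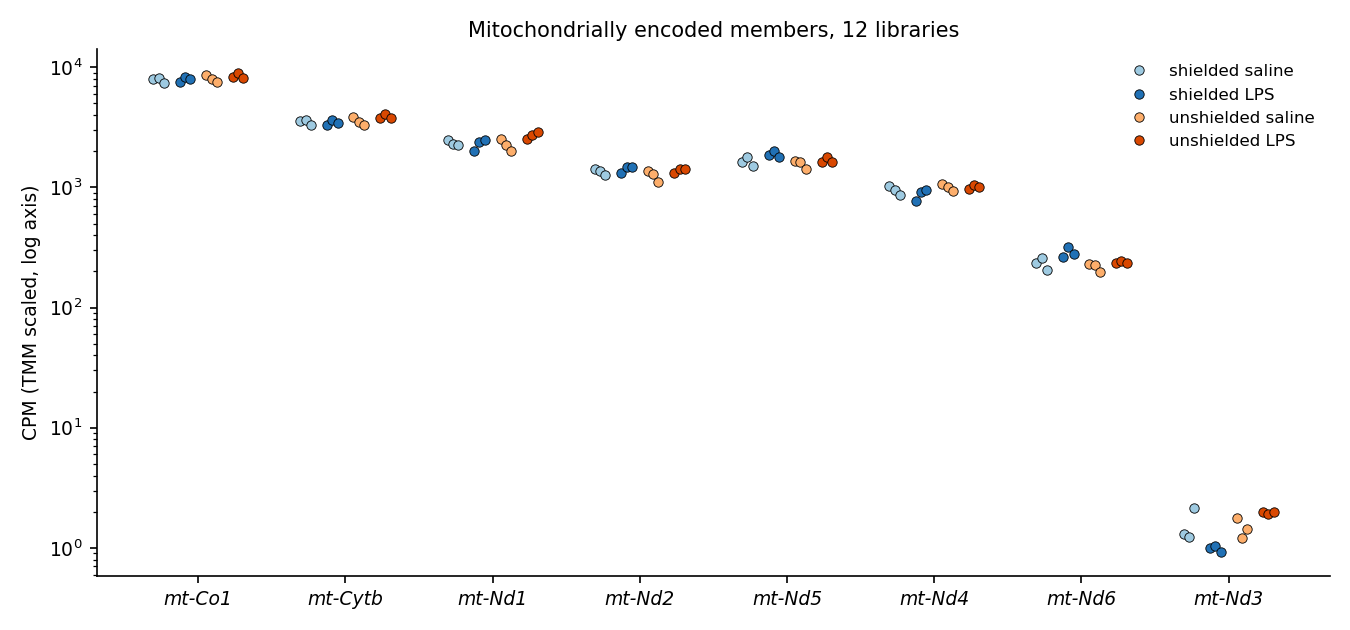
CPM (TMM scaled, log axis) of the 8 tested mitochondrially encoded members in each of the 12 libraries. The 4 groups overlap for most genes; mt-Nd3 lies near 1 to 2 CPM, far below the other members.

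Per kilobase of exon, and as means over the 4 groups, mt-Co1 stood at 5214 CPM per kb, mt-Cytb at 3146, mt-Nd1 at 2513 and mt-Nd2 at 1303. Cox6a1, at 192 CPM per kb, Cox8a at 178, Atp5a1 at 151 and Atp5b at 143 were the most abundant nuclear members. The 7 tested mitochondrial genes other than mt-Nd3 were thus above every nuclear member per length, with the overlaps and shared words given above.

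In unshielded mice LPS was again followed by higher levels of most nuclear members: 69 of 92 rose, 3 fell and 20 were not called. Over all tested genes 43.1% were called, 24.3% higher and 18.8% lower. Saline and LPS libraries did not overlap for 75 members that were higher and 5 that were lower, against 29.6% and 31.7% of all tested genes. The median was 0.44 for nuclear members and -0.06 for all genes, and library totals gave 33 higher and 9 lower, with medians of 0.14 and -0.36. Of all called genes, 56.4% were higher with TMM and 29.0% with library totals. The groups of this comparison share no library with those in shielded mice. Both comparisons came from 1 fit over all 12 libraries with shared scaling and a shared spread, so their calls are not independent. Of the members called higher, 63 were called in both arms, which is 87.5% of those called in shielded and 91.3% of those called in unshielded mice, and no member was called in opposite directions. The matching shares over all tested genes were not computed, so these are no trait shown to be particular to the members. The 3 members called lower in unshielded mice, Ndufaf7, Cox6b2 and Atp5s, were also called lower in shielded mice. Atp5s was at 6.94, 6.37 and 7.11 CPM in shielded saline and at 5.15, 5.50 and 5.31 CPM in shielded LPS libraries, and it was at 6.77, 6.84 and 6.60 CPM against 3.90, 3.49 and 3.99 CPM in unshielded mice. It fell by 0.36 and 0.83 on the log2 scale and was named after its values were seen. Marker lists moved here too: 5 of 9 neutrophil and 5 of 6 monocyte markers were higher, and 1 monocyte marker was lower. Lower levels were called for 6 of 10 microglial and 4 of 7 endothelial markers, and 2 of each were higher. The part of these lists was not tested. Summed neutrophil markers were at 240 to 888 CPM after LPS and at 45.0 to 128 CPM after saline. Of the neuronal markers, none of 9 was called lower, and their summed level was 947 to 1414 CPM after LPS and 1461 to 2189 CPM after saline. Taking the level of neuronal and oligodendrocyte markers as a covariate gave 67 nuclear members higher and 4 lower, against 4222 and 3429 of all tested genes.

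Without LPS, few of these genes were called between the arms. Of the 92 nuclear members 1 was higher and 4 were lower in unshielded than in shielded mice, with a median of -0.13, and none of the 8 mitochondrial members was called. Over all tested genes 10.8% were called, 3.98% higher and 6.85% lower. The arms did not overlap for 1 member that was higher and 23 that were lower, against 14.2% and 19.4% of all tested genes. Ndufa8 and Ndufa9, accessory subunits of complex I, and Sdhc of complex II were lower by 0.34, 0.36 and 0.31 on the log2 scale. Sdhc stood at 47.0 to 56.7 CPM in shielded and at 39.1 to 45.7 CPM in unshielded mice, without overlap. The muscle isoform Cox6a2 was lower by 0.62 and shares exon sequence with Itgad, a leukocyte integrin gene. Cox6b2 was higher by 1.13, at 6.20, 4.14 and 6.95 CPM in unshielded and at 3.06, 1.84 and 2.99 CPM in shielded mice. The nuclear calls were lost without shielded saline libraries 2 and 3, a fit that leaves library 1 alone in its group. The nuclear median was then -0.21, against 0.02 over all tested genes. Leaving out shielded saline library 1 or unshielded saline library 3 left none called lower, unshielded saline library 2 left 1, and shielded saline library 2, unshielded LPS library 2 or unshielded LPS library 3 left 2. Of 10 microglial markers, 7 were lower in unshielded mice, with mean log2 CPM of 9.69 to 10.1 against 10.6 to 10.9, and their part in these differences was not tested. Apoe took 6.58 to 9.41% of all counts in unshielded saline and 0.70 to 2.55% in shielded saline libraries. Whether the sorted cells of the arms differed in origin was not tested.

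After LPS, 36 of the 92 nuclear members were lower in unshielded than in shielded mice, 3 were higher and 53 were not called, with a median of -0.20. Over all tested genes 44.6% were called, 25.6% lower and 19.1% higher, with a median of 0.07. The arms did not overlap for 59 members that were lower and 8 that were higher, against 27.6% and 21.8% of all tested genes. Library totals gave 30 lower and 7 higher. Without unshielded saline library 1, 5 nuclear members were called higher. Ndufaf4 had the largest difference among members whose log2 CPM averaged 3 or more, at 33.8 to 44.5 CPM in shielded and 15.3 to 17.6 CPM in unshielded LPS libraries (log2 difference -1.23, SE 0.10, adjusted p = 5.5e-06). Cycs followed with -1.05 (SE 0.09, adjusted p = 5.7e-06), Ndufab1, the mitochondrial acyl carrier protein that is also a complex I subunit, with -0.71 (SE 0.10, adjusted p = 0.00016), Atp5g1 with -0.68 (SE 0.09, adjusted p = 0.0001) and Ndufa12 with -0.66 (SE 0.07, adjusted p = 2.6e-05). By complex, 6 of 9 complex III genes, 7 of 16 ATP synthase genes, 4 of 8 assembly factors, 3 of 7 core and 8 of 29 accessory complex I subunits were lower. The 3 higher members were all of complex IV: Cox7a2l by 0.48 (SE 0.13, adjusted p = 0.0088) and the low-level isoforms Cox6b2 by 1.41 and Cox4i2 by 1.30, the latter at 0.522 to 0.604 against 0.151 to 0.356 CPM. Of the mitochondrial members mt-Nd3 was higher by 0.99 (adjusted p = 0.0073) and mt-Nd6 lower by 0.28 (adjusted p = 0.049), and with library totals 3 were higher and none lower. The call of mt-Nd6 was lost in 14 of 23 alternative fits, among them those without any 1 unshielded library or without shielded LPS library 2.

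Other cell type markers moved with this comparison too. Of 10 microglial markers, 8 were lower in unshielded LPS libraries, with mean log2 CPM of 9.12 to 9.42 against 10.1 to 10.3, and 1 of 9 neuronal and 1 of 8 oligodendrocyte markers was higher. Of 8 astrocyte markers 4 were higher and 1 was lower. With neuronal and oligodendrocyte levels in the model, 25 nuclear members were lower and 2 higher, against 3524 and 2415 of all tested genes. Apoe took 7.60 to 8.75% of all counts in unshielded LPS and 0.21 to 0.40% in shielded LPS libraries. The part of microglial content or of cell origin in these differences was not tested.

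The LPS response differed between the arms for 8 nuclear members by the test of the difference (unshielded minus shielded, edgeR). Of these, 7 had a smaller and 1 a larger value in unshielded mice, and the part of cell origin was not tested. Over all tested genes 13.3% were called, 9.25% lower and 4.06% higher, and the members' counts are close to these shares. Ndufaf4 had a difference of -1.10 (SE 0.15, adjusted p = 0.0017), Cycs of -0.82 (SE 0.13, adjusted p = 0.0027), Ndufa12 of -0.61 (SE 0.10, adjusted p = 0.0038) and Atp5g1 of -0.52 (SE 0.13, adjusted p = 0.022). These 4 rose in both arms. Ndufab1 rose in shielded mice, from 16.7 to 17.3 CPM to 20.9 to 26.4 CPM, and had 15.3 to 18 CPM after saline and 13.7 to 14.6 CPM after LPS in unshielded mice, where it was not called on the TMM scale (-0.19) and was lower with library totals (-0.49, adjusted p = 0.0018). Ndufaf1, an assembly factor, was called higher in shielded mice (0.68) and not in unshielded mice (0.10), and Atp5f1, a subunit of the peripheral stalk, rose by 0.94 and 0.51. Cox7a2l had the positive difference, 0.71 (SE 0.18, adjusted p = 0.022), with the lower values after LPS called in shielded mice alone on the TMM scale. No mitochondrial member was called, the 4 genes of complex II had differences between -0.17 and 0.02, and none of the complex I core, complex II or complex III genes passed this test. Without shielded saline libraries 2 and 3, library 1 stands alone in its group and most of the 8 calls were lost. The median difference was then 0.04 for nuclear members and 0.05 for all tested genes. The count of 7 was 4 without shielded LPS library 1, shielded saline library 2 or unshielded saline library 1, and 13 without shielded LPS library 3. Cox7a2l was not called without shielded LPS library 1, shielded saline library 1, unshielded LPS library 3, unshielded saline library 2 or unshielded saline library 3.

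**Figure D5:**
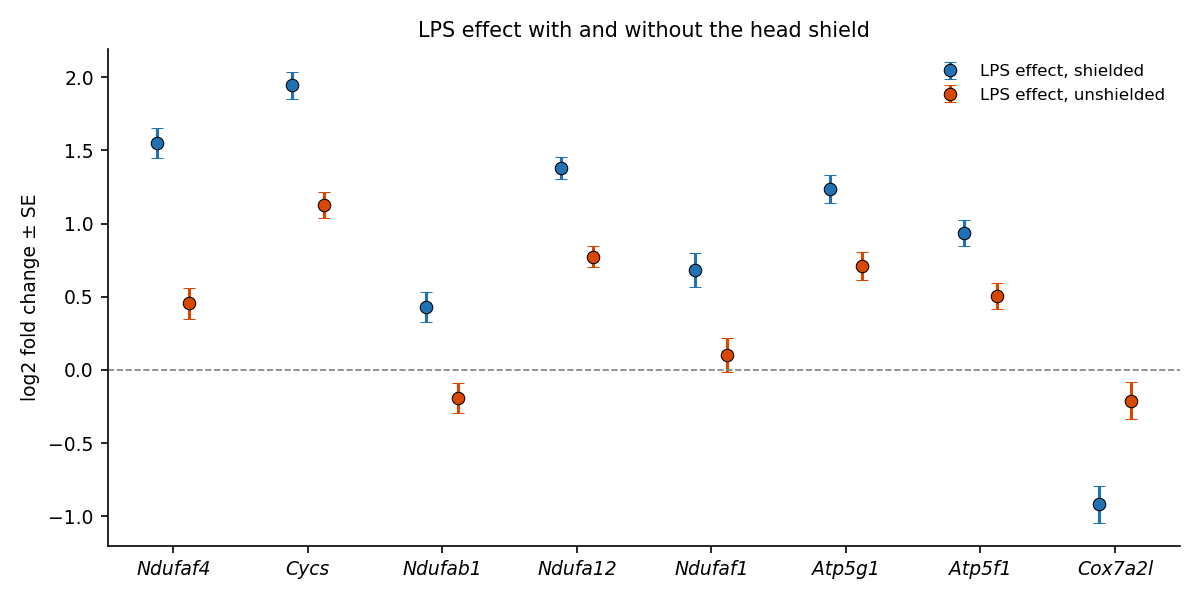
Log2 fold change after LPS with its SE in shielded and in unshielded mice, for the 8 members whose difference between the arms passed the test (3 libraries per group). For 7 genes the value is higher in shielded mice; Cox7a2l lies at -0.92 in shielded and at -0.21 in unshielded mice.

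Genes that serve the same organelle were read from lists by function. Over all 18875 tested genes, 32.4% were called higher and 35.1% lower in shielded mice, and 24.3% and 18.8% in unshielded mice. With library totals, 4047 of all tested genes were higher and 9127 lower in shielded mice, and 2660 and 6519 in unshielded mice. Of 77 tested proteins of the mitochondrial ribosome, which translates the mitochondrially encoded mRNAs, 72 rose after LPS in shielded mice, 56 rose in unshielded mice, and none fell, with medians of 0.80 and 0.43. With library totals 56 and 25 rose while 2 and 6 fell. After LPS 59 of 77 were lower in unshielded than in shielded mice, and 25 had a smaller response there by the test of the difference. Of 21 genes of protein import 20 and 16 rose, among them Tomm40, the pore of the outer membrane, by 1.84 and 1.0, and Tomm70a, an import receptor, by 1.75 and 1.05. With library totals 17 and 11 rose, and 2 fell in unshielded mice. Hspd1, the matrix chaperonin, was at 70.1 to 90.3 CPM in shielded saline and at 216 to 307 CPM in shielded LPS libraries, and rose by 1.63 there and by 0.50 in unshielded mice (difference -1.13, SE 0.21, adjusted p = 0.0053).

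The TCA cycle list showed both directions. Of 17 genes 15 rose and 2 fell in shielded mice and 12 rose and 1 fell in unshielded mice, where with library totals the split was 4 and 4. Idh3a, a subunit of the NAD-dependent isocitrate dehydrogenase, was at 46.0, 40.6 and 42.7 CPM in shielded saline and at 156, 134 and 123 CPM in shielded LPS libraries, a rise of 1.67 (log2, SE 0.09, adjusted p = 4.3e-08). Idh2, the NADP-dependent mitochondrial enzyme for the same step, was at 89.3, 90.8 and 85.5 CPM against 39.8, 37.3 and 45.2 CPM and fell by 1.12 (SE 0.10, adjusted p = 1.1e-06). In unshielded mice these changes were 0.82 and -0.78, and both were called. Of 39 respiratory chain assembly genes 25 rose and 4 fell in shielded mice and 19 and 2 in unshielded mice, against 17 and 8 and against 8 and 9 with library totals. Higd1a rose by 1.24 and 0.81 while Higd2a, a complex IV assembly protein of the same family, fell by 0.74 and 0.41.

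Factors that read and maintain the mitochondrial genome were followed as a list. Of 22 genes of mitochondrial DNA expression, 17 rose and 1 fell in shielded mice and 10 and 3 in unshielded mice, against 12 and 4 and against 6 and 5 with library totals. The 3 that fell are 13.6% of the list, near the 18.8% of all tested genes called lower in unshielded mice. Tfam, which packages mitochondrial DNA and activates its transcription, was at 24.6, 24.8 and 23.9 CPM in shielded saline and at 58.4, 57.3 and 48.4 CPM in shielded LPS libraries, and rose by 1.16 (SE 0.09, adjusted p = 4.1e-07) and by 0.61 in unshielded mice (SE 0.09, adjusted p = 0.00019). Polrmt, the mitochondrial RNA polymerase, rose by 0.50 and 0.36. Lrpprc, which stabilises mitochondrial mRNAs, rose by 0.70 in shielded mice and had 0.16 in unshielded mice (adjusted p = 0.25).

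Of 15 tested regulators of these genes, 8 rose and 1 fell in shielded mice and 5 and none in unshielded mice, where 24.3% of all tested genes were called higher, against 4 and 5 and against 3 and 2 with library totals. Nrf1 rose by 0.69 (SE 0.09, adjusted p = 2.1e-05) and 0.47 (SE 0.09, adjusted p = 0.00086). Gabpa, a subunit of GABP, rose by 0.32 in shielded mice, where it had -0.03 with library totals, and Esrra, an estrogen-related receptor, rose by 0.46. The coactivator Ppargc1a was at 3.71, 2.65 and 4.35 CPM in shielded saline and at 0.512, 0.871 and 3.20 CPM in shielded LPS libraries, overlapping ranges, and its change of -1.22 (SE 0.52) was not called (adjusted p = 0.055). Its relative Ppargc1b had 0.40 in shielded mice (adjusted p = 0.05, not called) and rose by 0.67 in unshielded mice (adjusted p = 0.0055). Myc was at 33.9, 47.1 and 27.6 CPM in shielded saline and at 112, 98.1 and 72.7 CPM in shielded LPS libraries, a rise of 1.38 (SE 0.23, adjusted p = 0.00032). In unshielded mice Myc had 0.19 (adjusted p = 0.51), and the difference of -1.19 (SE 0.32) was called (adjusted p = 0.034).

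Of 11 genes of uncoupling and antioxidant defence 8 rose in each arm and none fell on the TMM scale, while with library totals 8 rose and 3 fell in shielded mice and 5 rose in unshielded mice. Ucp2, an uncoupling-protein family carrier of the inner membrane, was at 711, 652 and 575 CPM in shielded saline and at 2255, 2743 and 2043 CPM in shielded LPS libraries. It rose by 1.86 (SE 0.15, adjusted p = 4.6e-07) in shielded and by 2.22 (SE 0.15, adjusted p = 4.7e-07) in unshielded mice. Sod2, the superoxide dismutase of the matrix, rose by 3.62 and 3.31. Acod1 rose by 6.53 (SE 0.56, adjusted p = 2.2e-06) and 4.79 (SE 0.51, adjusted p = 2.9e-05).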

How the data were processed

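RNA from sorted microglia was amplified linearly and sequenced, per the labels' protocols. The deposited values are whole-number read counts per gene, which the authors made with FastQC, STAR, HTSeq and mm9, per the submitters' processing notes. For versions, gene annotation and strandedness of counting, the entry is: not given in the sources used here. Groups follow the sample titles.

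Genes were tested with edgeR 4.0.16 in R 4.3.3 (TMM scaling, robust quasi-likelihood test, 1 fit over all 12 libraries). The filter (at least 10 counts in enough libraries and 15 in all) left 18875 of 36491 genes. Benjamini-Hochberg adjusted p under 0.05 was called, and every adjusted p printed comes from edgeR. SE is the absolute log2 fold change over the square root of F. The contrasts were LPS against saline in each arm, unshielded against shielded at each treatment, and the difference of the LPS effects. Alternatives were other scalings, DESeq2 1.42.0, no filter, a replicate block, a marker covariate, both treatments of the conflicting labels and each library left out. The edgeR fit was tested on simulated data.

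The members and lists were chosen with earlier results of these data known. Named were all tested mitochondrial members, a set of subunits fixed by name, per comparison the 5 called nuclear members with the largest change in each direction (mean log2 CPM of 3 or more), and the called companion gene with the smallest p. Ndufv2, Uqcrb, Uqcrh, Atp5g2, Atp5g3, Atp5f1, Atp5s, Cox6b2, Hspd1 and the promoters shown were chosen after their values were seen. Deviations from the group mean of same-numbered shielded saline and shielded LPS libraries had r = 0.112, 0.194 and 0.547 over genes. Shielded saline library 2 had a higher r with shielded LPS library 1 (0.399), while the other unlike-numbered pairs had r between -0.483 and -0.0138. The numbers thus did not single out pairs throughout, and whether a batch follows them was not tested. The labels give no shared animal or day. Sequences are from RefSeq (GRCm38.p6), a later build than mm9, matched by symbol.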

Additional observations from a re-analysis of the deposited data

Results flagged for a closer look

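The response to LPS differed between unshielded and shielded mice for 8 of 92 nuclear members, by edgeR's test of the difference with Benjamini-Hochberg adjustment over all tested genes. Over all tested genes 13.3% were called, 9.25% lower and 4.06% higher, and the members' counts are close to these shares. On the log2 scale, unshielded minus shielded, the difference was -1.10 for Ndufaf4, which lost its call in 1 of 21 alternative fits, and -0.82 for Cycs, which lost it in 2. It was -0.62 for Ndufab1 and -0.61 for Ndufa12, each losing the call in 3 fits. Atp5g1 had -0.52 and Cox7a2l had 0.71, and each lost the call in 7 fits. Atp5f1 had -0.43 and lost it in 11, and Ndufaf1 had -0.58 and lost it in 12. Grouping shielded saline libraries 2 and 3 by their treatment field left none of the 8 called.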

How the results depend on the processing

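With library totals in place of TMM, 36 nuclear members were called higher and 14 lower after LPS in shielded mice, and 33 and 9 in unshielded mice. Mitochondrial calls became 0 higher and 6 lower in shielded mice, 3 lower in unshielded mice, and 3 higher and 0 lower between the arms after LPS, where 7 nuclear members were higher. Of all 18875 tested genes, 9127 were then called lower after LPS in shielded and 6519 in unshielded mice. The difference of LPS effects had 2 members higher. Changes of sign with library totals in shielded mice were Cox4i1 at -0.061, Cox8a at -0.0088, Gabpa at -0.033, mt-Co1 at -0.33, mt-Nd2 at -0.26, mt-Nd6 at -0.043, Ndufv1 at -0.27 and Sdha at -0.025. In unshielded mice they were mt-Co1 at -0.22, mt-Nd4 at -0.29, mt-Nd5 at -0.20, Ndufv1 at -0.056 and Sdha at -0.14. The cause was not tested.

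With shielded saline libraries 2 and 3 grouped by their treatment field, the counts of called members were 0 in both LPS comparisons, without LPS and in the difference, and after LPS 1 nuclear member was lower and Idh2 changed sign to -0.17. Over all genes this grouping gave 0 calls in shielded mice, without LPS and in the difference. With both left out, 46 nuclear members were higher in shielded mice, mitochondrial calls there were 0, calls without LPS were 0, and the difference had 1 lower and 0 higher. With the marker covariate, 47 nuclear members were higher and 3 lower in shielded mice with 0 mitochondrial calls, 1 mitochondrial member was higher in unshielded mice, 9 nuclear members were lower without LPS, 4 were lower in the difference, and no mitochondrial member (0) was lower after LPS.

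Without the low-count filter, mitochondrial calls in shielded mice were 0, lower nuclear members were 22 after LPS, 2 without LPS and 2 in the difference, and 0 mitochondrial members were lower after LPS. DESeq2 called 12 lower in the difference. With median-ratio size factors, or with only the 6 libraries compared, 0 mitochondrial members were lower after LPS, and with only those 6 the count lower in shielded mice was 0 too. With the replicate block, mitochondrial members called higher in shielded mice were 2, nuclear members lower without LPS were 7, and nuclear members higher in the difference were 2. With the block in only the 6 libraries compared these were 2 and 19 for the first pair, and mitochondrial members lower were 0 in shielded mice and 0 after LPS. Replicate numbers did not consistently pair the libraries of any groups, the shielded ones included.

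Leaving out each library in turn gave, in the difference, 0 to 2 nuclear members higher and 4 to 13 lower. Without LPS it gave 0 to 1 higher and 0 to 6 lower, and after LPS 2 to 5 higher. Mitochondrial members called after LPS were 0 to 1 lower, in shielded mice 0 to 1 in each direction and in unshielded mice 0 to 1 higher. The mitochondrial share in shielded saline libraries was 2.01% of nuclear-gene counts. In the 150 bases before the start, the motif shares were 9.33% (NRF1), 16.0% (ETS), 1.33% (ERR) and 1.33% (YY1). Low counts limit mt-Nd3, Ndufa4l2 and Cox4i2.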
